A study of Mus musculus with 6 samples.

Results

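Egr1, Egr2, Egr3, Nr4a1, Nr4a2, Nr4a3, Ier2, Ier3 and Dusp1 are immediate early genes, which a cell transcribes within minutes of a stimulus without first making new protein. These 9 genes were picked by name, with earlier results of these data known, from the 38924 genes counted in a mouse RNA-seq series. All 9 were measured and all 9 passed the filter on low counts, which kept 17116 genes. The series set induced myogenic progenitor cells (iMPCs), muscle progenitors that arise when fibroblasts are reprogrammed, against satellite cells, which are the resident stem cells of muscle. It holds 6 libraries in 5 groups. The iMPC Pax7+ and iMPC Pax7- groups are the fractions of iMPC cultures sorted as positive or negative for Pax7-nGFP, a fluorescent reporter of the satellite cell factor Pax7, with 1 library each. Activated satellite cells (ASC; the title adds Pax7-plus and p1) and mouse embryonic fibroblasts (MEF) also had 1 library each. Quiescent satellite cells (QSC) had 2 libraries, from mouse 1 and mouse 3. According to the protocols in the labels, iMPCs were expanded after doxycycline had been withdrawn, in a medium with basic FGF, the cAMP-raising compound forskolin (5 µM), the TGF-beta receptor inhibitor RepSox (5 µM) and an inhibitor of GSK3 (3 µM). The transgene behind the reprogramming, the fibroblast type that gave these cultures, whether they were bulk or clonal, the medium of ASC and MEF, the way QSC were isolated, and strain, sex and age are not stated in the labels. Except for QSC, each group is 1 culture or sort, so its own spread is unknown.

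Immediate early genes are held ready in resting cells and switched on by signalling kinases. ERK acts on them through serum response factor (SRF) and its ELK partners, which bind the CArG box, and cAMP acts through CREB, which binds the cAMP response element (CRE). Their mRNAs are short-lived, partly because of AU-rich stretches in the 3′ untranslated region. The EGR proteins are zinc-finger transcription factors and the NR4A proteins are orphan nuclear receptors; Dusp1 encodes a phosphatase that switches MAP kinases off. In muscle, taking a satellite cell out of its fibre is itself known to induce such genes.

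RefSeq promoter windows (GRCm38.p6, 250 bases before to 50 after the start) were matched by symbol for 6 of the 9 genes, namely Egr2 with 5 windows and Nr4a1, Nr4a2, Nr4a3, Ier3 and Dusp1 with 1 each. Egr1, Egr3 and Ier2 were not matched. The sequences are shown because the CRE letters recur in the NR4A genes and Dusp1, and the CArG box stands in Egr2. Bases that GENCODE annotates as exon are left out, and for Egr2 only a stretch with 1 of its 2 CArG boxes is shown. Each is written 5′ to 3′ on the gene's own strand, from chr10:67537793-67537822 (+) for Egr2, chr15:101266596-101266845 (+) for Nr4a1, chr2:57124004-57124253 (-) for Nr4a2, chr4:48045055-48045152 (+) for Nr4a3 and chr17:26508520-26508722 (-) for Dusp1. Capitals mark the CArG box (the first capital run in Egr2), the CRE core, CGTCA or TGACG on the other strand, and the full CRE, TGACGTCA (in Dusp1).
Egr2: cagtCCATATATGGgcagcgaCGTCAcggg
Nr4a1: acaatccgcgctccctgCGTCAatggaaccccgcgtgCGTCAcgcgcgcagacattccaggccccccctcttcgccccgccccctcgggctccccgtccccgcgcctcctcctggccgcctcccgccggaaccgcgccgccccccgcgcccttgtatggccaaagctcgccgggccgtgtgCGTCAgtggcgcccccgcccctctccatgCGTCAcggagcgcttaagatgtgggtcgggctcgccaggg
Nr4a2: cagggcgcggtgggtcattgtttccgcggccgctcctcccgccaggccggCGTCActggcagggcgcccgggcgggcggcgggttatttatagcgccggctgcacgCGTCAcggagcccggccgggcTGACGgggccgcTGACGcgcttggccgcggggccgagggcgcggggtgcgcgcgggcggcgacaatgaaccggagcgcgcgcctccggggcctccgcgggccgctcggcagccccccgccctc
Nr4a3: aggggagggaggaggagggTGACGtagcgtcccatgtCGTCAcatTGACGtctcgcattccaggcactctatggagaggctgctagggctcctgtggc
Dusp1: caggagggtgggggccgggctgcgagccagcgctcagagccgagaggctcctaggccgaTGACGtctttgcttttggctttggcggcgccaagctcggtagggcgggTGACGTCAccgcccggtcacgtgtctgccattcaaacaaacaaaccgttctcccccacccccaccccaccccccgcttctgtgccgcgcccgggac

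The CRE core (CGTCA, both strands) stood in the windows of 5 of the 6 matched genes, all but Ier3. It occurs in 20.8% of all 32851 windows of the table. Nr4a1, Nr4a2 and Nr4a3 each held 4 copies in the window, a number that 0.231% of all windows reach. In Nr4a3, 1 of the 4 copies lies in bases annotated as exon and so is not in the printed sequence. Dusp1 held 3 copies, 2 of which make up its full CRE, and 1.03% of windows hold at least 3. The windows of these genes are rich in G and C, at 72.3% in Nr4a1, 81.7% in Nr4a2, 64.7% in Nr4a3 and 67% in Dusp1, against a median of 52.7% over all windows. Among the 15129 windows within the members' GC range, the CRE core stood in 29.4%, and at least 2 copies stood in 8.39%. That range ran from 54% (Ier3) to 81.7% (Nr4a2), and the shares with 3 or 4 copies within it were not counted. The full CRE (1.79% of windows) was found only in Dusp1, and the CArG box (1.63%) only in Egr2. Of its 5 windows 4 held a match, at 2 places, since 3 of the windows overlap and share the box printed above. Among the EGR motifs, GCGGGGGCG (2.91% of windows) stood in Nr4a1 and GCGTGGGCG (0.612%) in no member. The NR4A motif AAAGGTCA (1.51%) and the AP-1 motif TGANTCA (7.81%) were in none of the 6 genes, and TATAAA (13.6%) was in Nr4a2. These are matches of letters, and no binding was measured in this series.

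**Figure D1:**
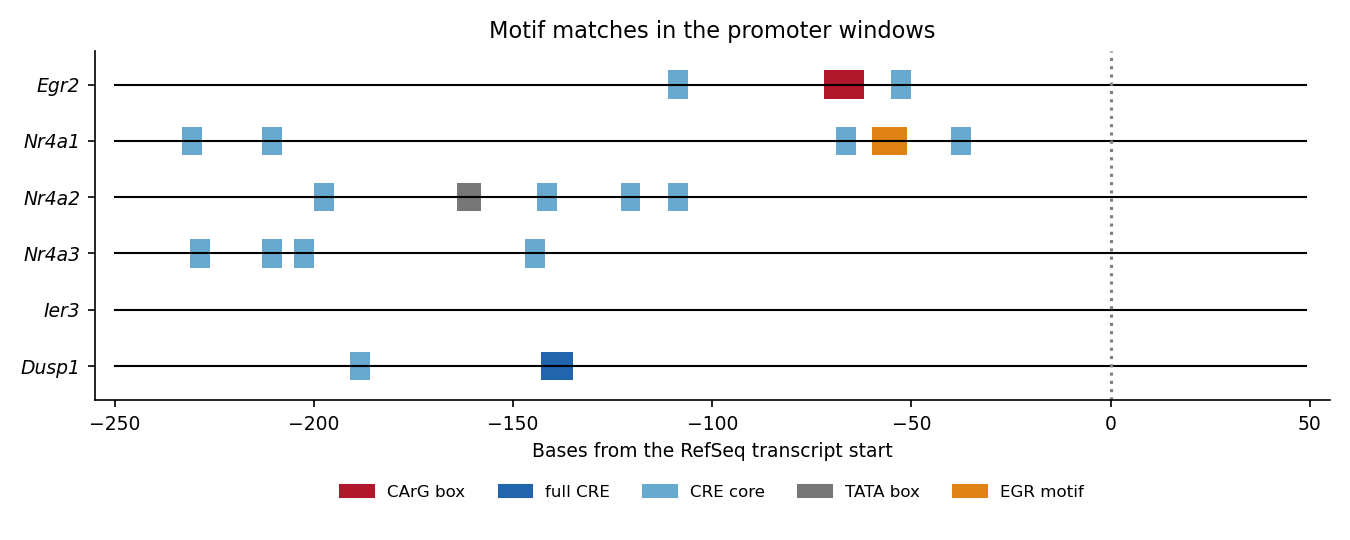
Positions of motif matches in 6 RefSeq promoter windows, 1 for each matched gene; the x axis is the distance from the RefSeq start in bases, and each marker is 1 match on either strand. The CRE core appears 4 times in each of the 3 Nr4a windows, Dusp1 holds the full CRE (drawn once, without the cores inside it) and 1 further core, and Ier3 holds no match.

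The libraries held 20859611 to 29279686 counts, with 18309 to 19545 genes detected. The summed satellite cell markers reached 2799 CPM (counts scaled to a common library total with TMM, edgeR's trimmed mean factors) in iMPC Pax7+, 1512 in iMPC Pax7-, 2469 in ASC and 380 in MEF, against 6088 in QSC mouse 1 and 4423 in mouse 3. Pax7 itself stood at 37.8 CPM in iMPC Pax7+, 6.25 in iMPC Pax7-, 19.8 in ASC and 0 in MEF, against 34.5 and 160 in QSC. Not all 9 markers followed the sum. Itga7 had 724, 272, 651 and 18.5 CPM in the same order, against 435 and 238 CPM in QSC. Cdh15 had 962, 488, 427 and 0.860 CPM, against 313 and 555 CPM. Myod1 had 719, 404, 1029 and 0.598 CPM, against 1836 and 630 CPM. Of the sum in MEF, Sdc4 gave 191 CPM and Vcam1 148 CPM. The summed level of 6 proliferation markers came to 513 to 1207 CPM in the 4 other libraries and to 125 and 3.57 CPM in QSC. The QSC mice differed in Xist (0.0954 and 530.1 CPM) and in the Y-linked Ddx3y (455 and 0.226 CPM), so any difference between the sexes is part of their spread. In bulk RNA, fewer cells that express a gene and less of its RNA per cell cannot be told apart.

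The EGR genes encode zinc-finger transcription factors that bind GC-rich DNA. Egr1, the founding member of the family, had 540 CPM in iMPC Pax7+, 325 in iMPC Pax7-, 276 in ASC and 301 in MEF, against 6630 in QSC mouse 1 and 9032 in QSC mouse 3. The groups did not overlap, and the lower QSC mouse stood 12.3-fold above the highest other library. Egr1 was lower in iMPC Pax7+ than in QSC by a log2 fold change of -3.86 ± 0.97 (SE; edgeR quasi-likelihood test, Benjamini-Hochberg adjusted p = 0.0096). It was lower by -4.59 ± 1.01 in iMPC Pax7-, -4.83 ± 1.02 in ASC and -4.70 ± 1.02 in MEF, with edgeR adjusted p of 0.0045, 0.0030 and 0.0038. Below QSC the order was iMPC Pax7+, iMPC Pax7-, MEF and ASC. iMPC Pax7-, MEF and ASC lay closer to their neighbours than the 2 QSC mice lay to each other (1.36-fold), whereas iMPC Pax7+ stood 1.66-fold above iMPC Pax7-. On the length-corrected RPKM scale (reads per kilobase and per library total), Egr1 was the highest of the 9 genes in every library, at 203, 126, 98.2 and 111 RPKM in iMPC Pax7+, iMPC Pax7-, ASC and MEF, against 1518 and 2201 RPKM in QSC. By RPKM it ranked 46th and 32nd of all tested genes in the QSC mice.

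Egr2, known for its role in Schwann cell myelination and in lymphocytes, had 14.1 CPM in iMPC Pax7+, 54.0 in iMPC Pax7-, 9.69 in ASC and 14.7 in MEF, against 209 and 234 CPM in QSC mouse 1 and mouse 3. QSC was again above all other libraries, by 3.86-fold at the closest, and the nearest library was iMPC Pax7-. The log2 fold change from QSC was -3.97 ± 0.74 in iMPC Pax7+, -4.51 ± 0.76 in ASC and -3.91 ± 0.74 in MEF (edgeR adjusted p = 0.0013, 5.1e-04 and 0.0014). In iMPC Pax7- it was smaller, -2.03 ± 0.66, with an edgeR adjusted p of 0.039. Schwann markers (5 genes) summed to 1.54, 20.1, 0.862 and 2.28 CPM in iMPC Pax7+, iMPC Pax7-, ASC and MEF, against 14.8 and 11.5 CPM in QSC, with Gfra3, Sox10 and S100b at 0 in ASC and Gfra3 at 0 in MEF; their part in the Egr2 values was not tested.

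Egr3, a close relative that acts in muscle spindle development, was low everywhere. It had 2.57 CPM in iMPC Pax7+, 4.19 in iMPC Pax7-, 3.62 in ASC and 0.972 in MEF, against 1.38 and 3.57 CPM in QSC mouse 1 and mouse 3. The groups overlapped, and mouse 1 stood below 3 of the other 4 libraries. No comparison with QSC passed the threshold: the log2 fold changes were 0.05 ± 1.16, 0.76 ± 1.13, 0.54 ± 1.14 and -1.35 ± 1.25 in iMPC Pax7+, iMPC Pax7-, ASC and MEF, with edgeR adjusted p from 0.475 to 0.987. These standard errors exceed 1 log2 unit, so a change of 2-fold in either direction was not detectable for Egr3 at this depth of 26 to 124 counts a library.

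**Figure D2:**
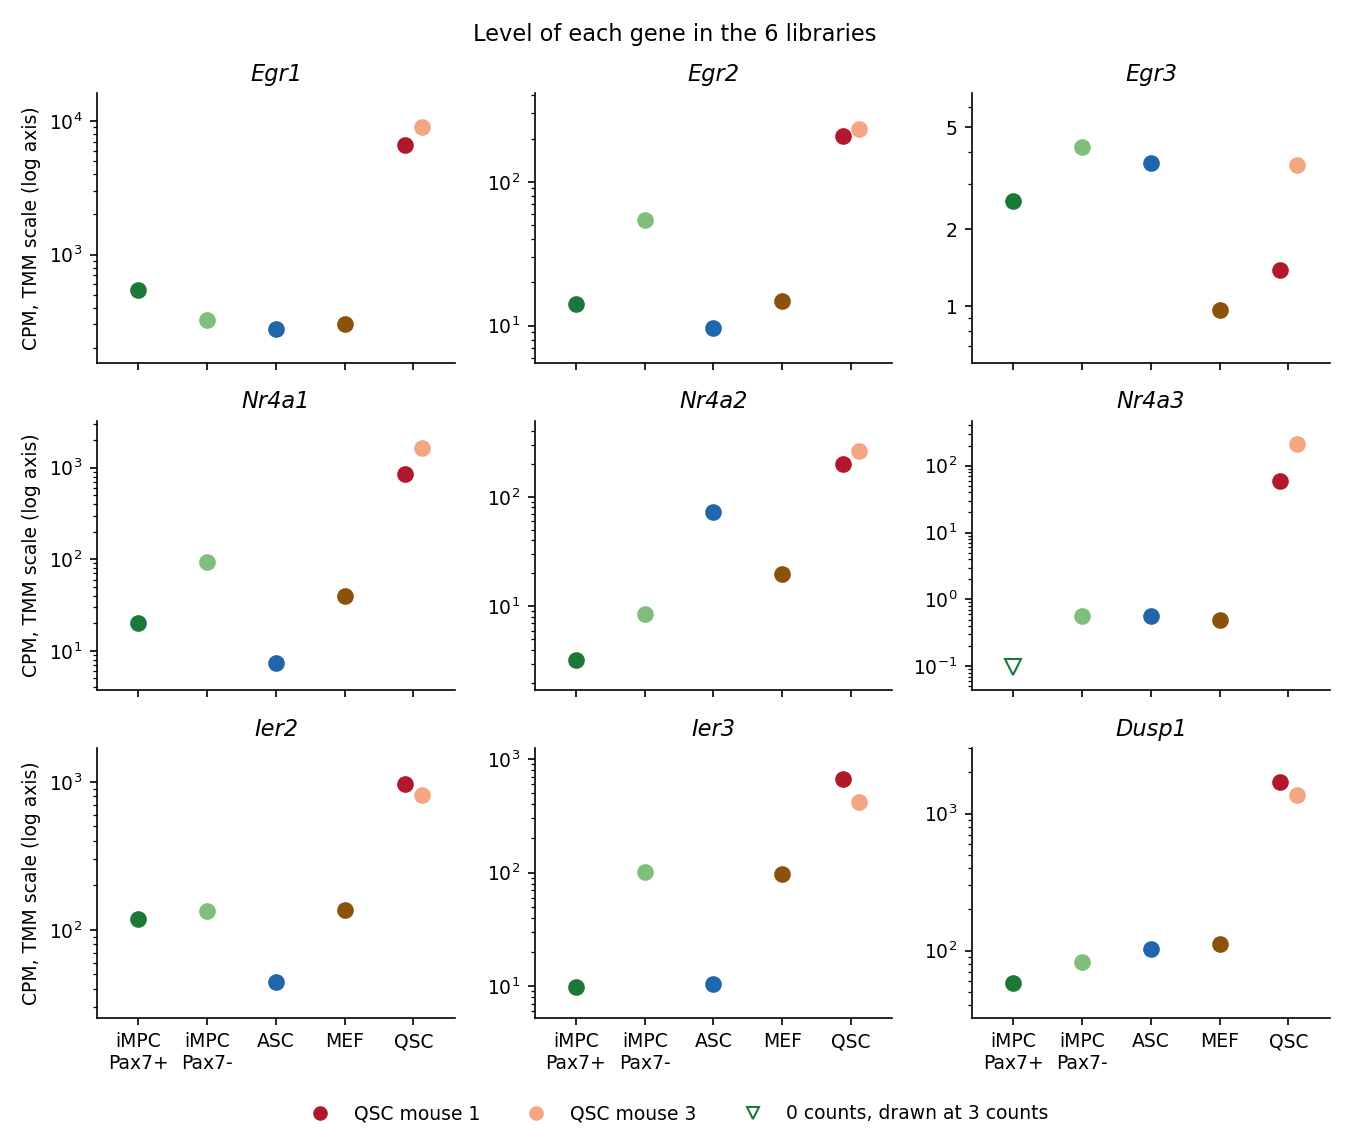
Level of each of the 9 genes in the 6 libraries, in CPM after TMM scaling on a log axis; each point is 1 library and the open triangle marks 0 counts, drawn at the level of 3 counts. QSC points lie above all others in 8 panels, and in Egr3 they lie among them. The share of all tested genes with such a separation is not given here.

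The NR4A genes encode nuclear receptors that act without a known classical ligand and are governed mainly by how much of them is made. Nr4a1 had 20.4 CPM in iMPC Pax7+, 92.2 in iMPC Pax7-, 7.32 in ASC and 39.8 in MEF, against 844 and 1648 CPM in QSC mouse 1 and mouse 3. The lower QSC mouse was 9.15-fold above iMPC Pax7-, the highest other library, and ASC was lowest. The log2 fold change from QSC was -5.93 ± 0.92 in iMPC Pax7+, -3.76 ± 0.81 in iMPC Pax7-, -7.41 ± 0.99 in ASC and -4.97 ± 0.87 in MEF (edgeR adjusted p = 3.0e-04, 0.0039, 5.3e-05 and 7.7e-04). In ASC this is a level 170-fold below QSC.

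Nr4a2, which in the brain is needed for dopamine neurons, had 3.22 CPM in iMPC Pax7+, 8.51 in iMPC Pax7-, 72.1 in ASC and 19.7 in MEF, against 199 and 264 CPM in QSC mouse 1 and mouse 3. Its order below QSC differed from that of Nr4a1, with ASC highest and iMPC Pax7+ lowest, and each step in that order was larger than the 1.33-fold between the QSC mice. The log2 fold change from QSC was -6.17 ± 0.84 in iMPC Pax7+, -4.76 ± 0.78 in iMPC Pax7- and -3.56 ± 0.73 in MEF (edgeR adjusted p = 1.2e-04, 4.8e-04 and 0.0025). In ASC the log2 fold change of -1.68 ± 0.65 did not pass the threshold (edgeR adjusted p = 0.076), though ASC lay below both mice. The same comparison passed with DESeq2, at a log2 fold change of -1.79 and an adjusted p of 0.020.

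Nr4a3 showed the widest gap. It had 0 counts in iMPC Pax7+, 17 in iMPC Pax7- and 13 each in ASC and MEF, against 1221 and 4707 counts in QSC mouse 1 and mouse 3. This makes 0, 0.574, 0.560 and 0.486 CPM in iMPC Pax7+, iMPC Pax7-, ASC and MEF, against 58.2 and 213 CPM in QSC. QSC thus stood at least 101.4-fold above every other library, while the mice themselves differed 3.66-fold. With a floor of 3 counts in the library (0.0965 CPM), Nr4a3 in iMPC Pax7+ was at least 603-fold lower than in mouse 1 and at least 2205-fold lower than in mouse 3. The log2 fold change from QSC was -7.87 ± 1.11 in iMPC Pax7-, -7.91 ± 1.12 in ASC and -8.11 ± 1.12 in MEF (edgeR adjusted p = 1.2e-04, 9.5e-05 and 1.0e-04). Against mouse 1 alone, these 3 log2 fold changes were -6.48, -6.51 and -6.69. The 3 libraries with counts cannot be ordered at 13 to 17 counts.

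The members also differ in how their RNA was counted. The gene lengths implied by the authors' RPKM values were 1416 bases for Egr3 and 1632 bases for Nr4a3, against 3940 and 5720 bases for the longest coding transcripts in GENCODE vM21, and 3129 and 2707 bases for Egr1 and Nr4a2, against 4484 and 3568 bases. Those of Egr2, Nr4a1, Ier2, Ier3 and Dusp1 lay close to the GENCODE lengths. Reads outside a shorter model would not have entered a gene's count, and how far this lowered the levels of these 4 genes was not tested.

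Ier2, a nuclear protein induced by growth factors, had 119 CPM in iMPC Pax7+, 134 in iMPC Pax7-, 44.7 in ASC and 135 in MEF, against 964 and 819 CPM in QSC mouse 1 and mouse 3. The lower QSC mouse was 6.05-fold above MEF, and ASC stood apart at the low end. iMPC Pax7+, iMPC Pax7- and MEF differed from each other by at most 1.14-fold, less than the 1.18-fold between the mice. Relative to QSC the log2 fold change was -2.91 ± 0.72 in iMPC Pax7+, -2.74 ± 0.72 in iMPC Pax7-, -4.32 ± 0.79 in ASC and -2.72 ± 0.72 in MEF (edgeR adjusted p = 0.0092, 0.013, 9.4e-04 and 0.013).

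Ier3, a short protein linked to cell survival and ERK signalling, had 9.81 CPM in iMPC Pax7+, 101 in iMPC Pax7-, 10.5 in ASC and 96.8 in MEF, against 671 and 419 CPM in QSC mouse 1 and mouse 3. The other libraries fell into a high pair, iMPC Pax7- and MEF, and a low pair, iMPC Pax7+ and ASC, with about 9-fold between them and less within each pair than between the mice. Relative to QSC the log2 fold change was -5.80 ± 0.85 and -5.70 ± 0.84 in the low pair, iMPC Pax7+ and ASC (edgeR adjusted p = 2.0e-04 and 1.5e-04). It was -2.43 ± 0.70 and -2.49 ± 0.70 in iMPC Pax7- and MEF (edgeR adjusted p = 0.022 and 0.019).

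Dusp1, the phosphatase that inactivates p38, JNK and ERK in the nucleus, had 57.5 CPM in iMPC Pax7+, 81.8 in iMPC Pax7-, 103 in ASC and 111 in MEF, against 1691 and 1358 CPM in QSC mouse 1 and mouse 3. QSC stood 12.2-fold or more above the others, which lay within a 1.93-fold range. Relative to QSC the log2 fold change was -4.73 ± 0.84 in iMPC Pax7+, -4.22 ± 0.82 in iMPC Pax7-, -3.88 ± 0.80 in ASC and -3.78 ± 0.80 in MEF (edgeR adjusted p = 9.2e-04, 0.0017, 0.0024 and 0.0031). Dusp1 is the only member that overlaps other genes in GENCODE vM21, among them Ergic1 on the opposite strand. Ergic1 ran the other way, at 292, 260, 227 and 351 CPM in iMPC Pax7+, iMPC Pax7-, ASC and MEF, against 70.4 and 104 CPM in QSC. The overlap is one of gene spans, and overlap of exons was not tested. Whether counting used the strand is not stated either, so whether reads of the pair were mixed is not known.

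Set against QSC, 8 of the 9 genes were lower in iMPC Pax7+ at an edgeR Benjamini-Hochberg adjusted p below 0.05, where 9.31% of all tested genes were lower. In iMPC Pax7- 8 of 9 were lower (6.57% of all genes), in ASC 7 of 9 (8.24%) and in MEF 8 of 9 (8.03%). In the contrast of the mean of the 4 other groups with QSC, 8 of 9 were lower, against 20.3% of all genes. Scaling by library size alone changed the split of all genes called, from edgeR's test, to 1998 higher and 531 lower in iMPC Pax7+ (1931 and 1593 with TMM), 2141 and 329 in iMPC Pax7- (2065 and 1124), 1868 and 501 in ASC (2021 and 1411) and 1836 and 461 in MEF (1938 and 1374). Under that scaling 7, 5, 7 and 6 members were lower in iMPC Pax7+, iMPC Pax7-, ASC and MEF. None of the 9 was higher in any of these 5 contrasts, which share the QSC libraries. Egr3 passed in none, and Nr4a2 did not pass in ASC. The median log2 fold change of the 9 genes was -4.73 in iMPC Pax7+, -3.76 in iMPC Pax7-, -4.51 in ASC and -3.78 in MEF, where the medians of all tested genes were -0.03, 0.15, 0.00 and 0.00. Together the 9 genes took 0.0904%, 0.0970%, 0.0588% and 0.0827% of all counts in iMPC Pax7+, iMPC Pax7-, ASC and MEF, against 0.807% and 1.07% in QSC mouse 1 and mouse 3. With limma on log2(RPKM + 0.1), no gene of the 17116 passed the adjusted threshold in any contrast. At an unadjusted limma p below 0.05, 8, 7, 7 and 8 members were lower in iMPC Pax7+, iMPC Pax7-, ASC and MEF. In the same order, 5551, 5782, 5580 and 5523 of all 17116 genes had such an unadjusted p, in either direction.

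**Figure D3:**
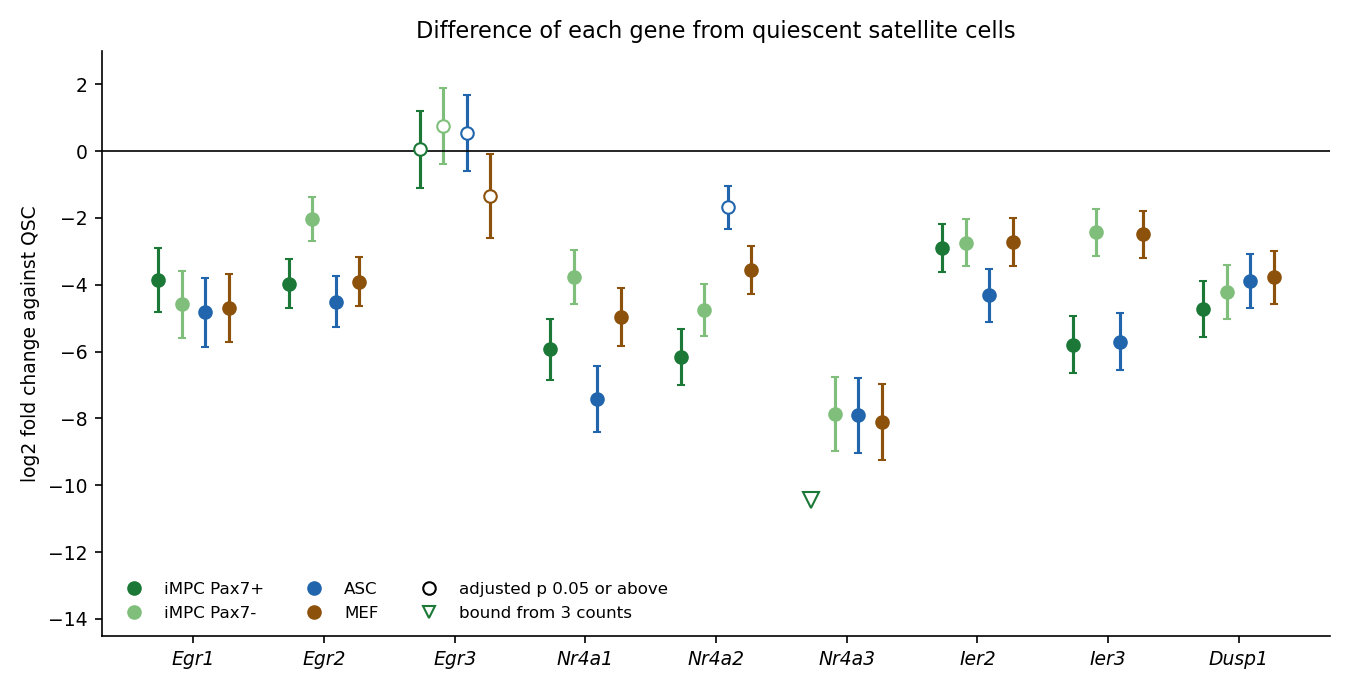
Log2 fold change from QSC of each gene in iMPC Pax7+, iMPC Pax7-, ASC and MEF, from edgeR's fit; bars are SE, filled points passed the adjusted threshold of 0.05 and open ones did not. Egr3 and, in ASC, Nr4a2 are open; Nr4a3 in iMPC Pax7+ (0 counts) is drawn at its bound of -10.46.

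Summed endothelial, immune and erythroid markers were higher in both QSC mice than in every other library. The sums for pericytes and fibroblasts were not, though single genes of these lists differed from their sum. Endothelial markers (8 genes) summed to 2.45, 20.3, 1.77 and 18.8 CPM in iMPC Pax7+, iMPC Pax7-, ASC and MEF, against 163 and 40.7 CPM in QSC mouse 1 and mouse 3. Cldn5 and Kdr were at 0 in iMPC Pax7+, Tie1 and Emcn in ASC, and Cdh5, Tie1 and Cldn5 in MEF. None was at 0 in QSC. Of the sum in mouse 3, Tek gave 21.4 CPM and Esam 7.96 CPM. Pecam1, Cdh5, Emcn and Kdr had 3.03, 0.859, 1.18 and 1.63 CPM in mouse 3, against 4.76, 3.04, 1.82 and 2.77 CPM in iMPC Pax7-. Esam, Tek, Tie1 and Cldn5 were higher in mouse 3 than in iMPC Pax7-. Immune markers (8 genes) summed to 19.98, 39.5, 22.4 and 13.0 CPM in the same order, against 259 and 143 CPM in QSC, with Tyrobp, C1qa and Lyz2 at 0 in iMPC Pax7+ and C1qa in iMPC Pax7-. Laptm5 ran against this sum, at 18.6, 36.3, 19.3 and 0.673 CPM in iMPC Pax7+, iMPC Pax7-, ASC and MEF, against 3.96 and 3.03 CPM in QSC. Laptm5 made up most of the immune sum in iMPC Pax7+, iMPC Pax7- and ASC. Csf1r was lower in mouse 3 (0.0452 CPM) than in every other library. Erythroid markers (5 matched) summed to 0.547, 2.03, 2.37 and 2.92 CPM in the 4 other libraries, against 1220 CPM in mouse 1 and 19.3 CPM in mouse 3, with Alas2 and Hbb-bs at 0 in iMPC Pax7+, Slc4a1 and Alas2 in ASC, and Slc4a1 in MEF and mouse 3. Pericyte and smooth muscle markers (6 genes) summed to 267, 337, 283 and 239 CPM in iMPC Pax7+, iMPC Pax7-, ASC and MEF, against 164 and 352 CPM in QSC, with Kcnj8 at 0 in ASC. Notch3 had 212, 92.4, 51.7 and 23.0 CPM in these libraries, against 118 and 310 CPM in QSC mouse 1 and mouse 3. Fibroblast markers (7 genes, none at 0) summed to 1988, 7882, 630 and 15487 CPM in iMPC Pax7+, iMPC Pax7-, ASC and MEF, against 1024 and 625 CPM in QSC. Dcn, 1 of the 7, had 12.3, 417, 1.08 and 40.6 CPM, against 206 and 312 CPM in QSC. The part of these cells in the members' levels was not tested.

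Within the QSC pair, all 6 Egr and Nr4a genes were lower in mouse 1 than in mouse 3, by 1.36-fold for Egr1, 1.12-fold for Egr2, 2.58-fold for Egr3, 1.95-fold for Nr4a1, 1.33-fold for Nr4a2 and 3.66-fold (95% counting interval 3.43 to 3.90) for Nr4a3. Ier2, Ier3 and Dusp1 were higher in mouse 1, by 1.18-fold, 1.60-fold and 1.25-fold. No member passed the rule of size used between single libraries (at least 4-fold on log2 CPM with a prior count of 2, and at least 5 CPM in the higher), which 2.42% of tested genes passed in this pair. These are 2 animals, so the split has no test. Intervals here and below cover counting error only.

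The 2 iMPC fractions differed past the rule of size in Ier3 and Nr4a1. Nr4a1 was 4.52-fold lower in iMPC Pax7+ than in iMPC Pax7- (95% counting interval 4.15 to 4.94), and Ier3 was 10.3-fold lower (9.16 to 11.6). These were the 2 of 9 members past the rule of size, which 4.43% of all genes passed. Egr2 was 3.83-fold lower in iMPC Pax7+ (3.44 to 4.26) and Nr4a2 2.65-fold lower (2.09 to 3.37), both short of the rule. Nr4a3, with 0 counts in iMPC Pax7+ and 17 in iMPC Pax7-, lay under the 5 CPM minimum. Egr1 alone was higher in iMPC Pax7+, 1.66-fold (1.62 to 1.70). With 1 library each, these differences have no replicate check. The fibroblast markers also differed (1988 CPM in iMPC Pax7+ and 7882 CPM in iMPC Pax7-), where Pdgfra stood at 2.22 and 105 CPM; the part of fibroblasts left in the cultures was not tested.

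Against ASC, iMPC Pax7+ differed past the rule in 1 member, where 7.4% of genes passed: Nr4a2 was 22.4-fold lower in iMPC Pax7+ (18.3 to 27.7). iMPC Pax7- differed from ASC in 4 members, where 8.42% of genes passed. Nr4a1 was 12.6-fold higher in iMPC Pax7- (10.8 to 14.8), Ier3 9.67-fold higher (8.48 to 11.1) and Egr2 5.57-fold higher (4.85 to 6.44), while Nr4a2 was 8.47-fold lower (7.42 to 9.71). Against MEF, iMPC Pax7+ differed in 2 members (8.91% of genes): Nr4a2 was 6.11-fold lower (4.93 to 7.64) and Ier3 9.86-fold lower (8.76 to 11.1). No member passed between iMPC Pax7- and MEF (7.11% of genes), where Egr3 was 4.31-fold higher (2.81 to 6.86) at under 5 CPM. ASC differed from MEF in 2 members (8.78% of genes), with Nr4a1 5.43-fold lower (4.62 to 6.43) and Ier3 9.25-fold lower (8.10 to 10.6).

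The makeup of each family followed from these differences, here given as shares of summed RPKM. Egr1 made up 96.3% of the 3 Egr genes in iMPC Pax7+, 83.0% in iMPC Pax7-, 93.8% in ASC and 94.4% in MEF, against 96.7% and 97.2% in QSC. Egr2 made up 14.6% in iMPC Pax7- and at most 4.89% elsewhere. Nr4a1 was the main Nr4a gene in iMPC Pax7+ (87.4%), iMPC Pax7- (91.4%), MEF (68.0%) and QSC (75.8% and 74.5%). In ASC it made up 9.89%, and Nr4a2 made up 89.0%. Nr4a3 held 0%, 0.863%, 1.15% and 1.26% of the family in iMPC Pax7+, iMPC Pax7-, ASC and MEF, against 7.92% and 14.6% in QSC mouse 1 and mouse 3. The family sum for Nr4a was 11.1, 49.4, 33.3 and 27.2 RPKM in iMPC Pax7+, iMPC Pax7-, ASC and MEF, against 323 and 682 RPKM in QSC.

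**Figure D4:**
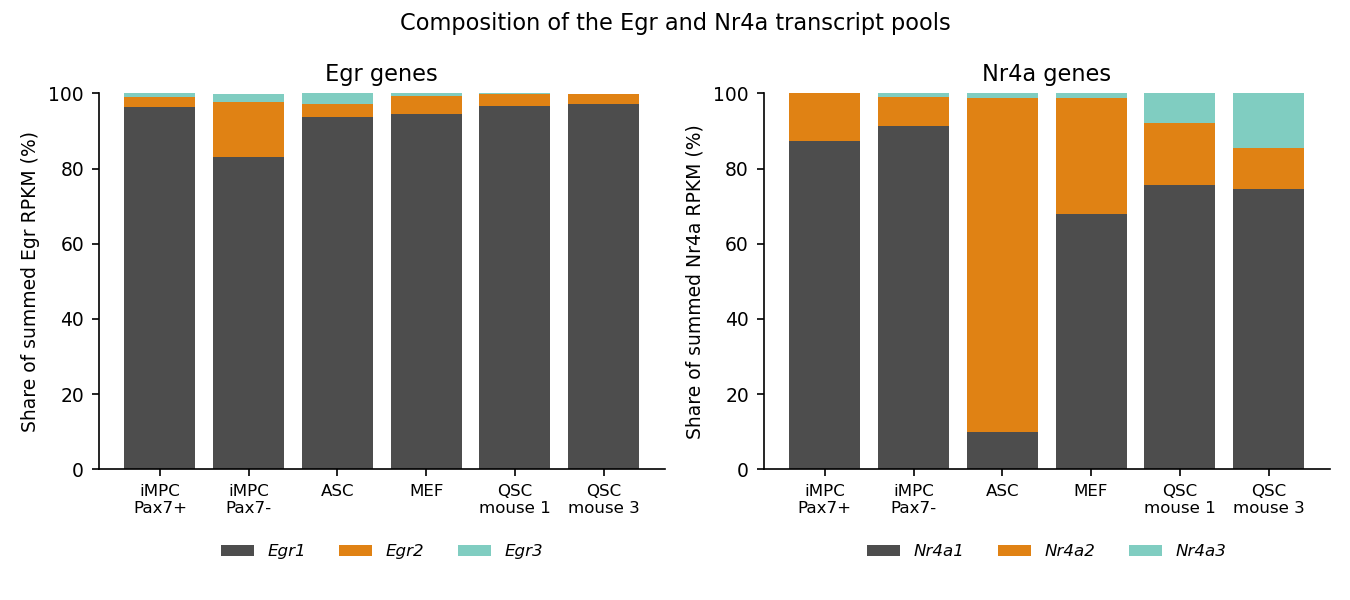
Share of each gene in the summed RPKM of its family, in percent, for the Egr genes and the Nr4a genes in the 6 libraries; each bar is 1 library and adds up to 100%. Egr1 fills most of every Egr bar, and ASC is the library where Nr4a2 (89.0%) and not Nr4a1 leads.

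Other primary response genes, such as the AP-1 and KLF factors, were lower outside QSC too. Of 31 listed genes, all tested, 26 fell in iMPC Pax7+, 23 in iMPC Pax7-, 24 in ASC and 22 in MEF relative to QSC, and none rose (edgeR, adjusted over all genes). Over all tested genes, 9.31%, 6.57%, 8.24% and 8.03% were lower in these comparisons. The median log2 fold changes of the 31 listed genes were -4.20, -3.86, -4.16 and -3.26. Atf3, a stress-induced factor of the CREB family, had 0.837 CPM in iMPC Pax7+, 4.96 in iMPC Pax7-, 5.34 in ASC and 3.33 in MEF, against 1295 and 2198 CPM in QSC. Fosb, an AP-1 subunit, changed by -6.90 ± 0.97 log2 units in iMPC Pax7+ and Maff, a small MAF factor, by -6.59 ± 0.89 (edgeR adjusted p = 1.4e-04 and 1.1e-04). Ctgf, a target of YAP and TGF-beta, fell in iMPC Pax7+ (log2 -6.72 ± 0.91, edgeR adjusted p = 1.1e-04) but had 1177 CPM in MEF, against 547 and 388 CPM in QSC. This list was assembled with earlier results of these data known.

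Heat shock genes were lower too. Of 9 listed chaperone genes, 8 fell in each of the 4 comparisons with QSC, all but Hspd1. Over all tested genes, 9.31%, 6.57%, 8.24% and 8.03% were lower in iMPC Pax7+, iMPC Pax7-, ASC and MEF. This list was also assembled with earlier results of these data known. The chaperone genes had median log2 fold changes of -4.57, -4.97, -3.88 and -3.95 in iMPC Pax7+, iMPC Pax7-, ASC and MEF. They took 0.464%, 0.362%, 0.466% and 0.490% of counts in these libraries, against 6.28% and 8.21% in QSC mouse 1 and mouse 3. Dnajb1, a co-chaperone of HSP70, had 75.5, 77.0, 61.3 and 94.4 CPM, against 4305 and 8344 CPM in QSC. Hspa1a and Hspa1b, near-identical HSP70 genes whose reads cannot be told apart with certainty, had 3.25 and 6.60 CPM in iMPC Pax7+, against 22960 and 21657 CPM in QSC mouse 1. The part of cell handling in the members' levels was not tested, and the labels do not state the isolation of QSC.

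For the signalling routes upstream, the counts stand beside 1931 higher and 1593 lower of all 17116 genes in iMPC Pax7+, 2065 and 1124 in iMPC Pax7-, 2021 and 1411 in ASC and 1938 and 1374 in MEF. With lists of 15 and 17 genes, a difference from that background of a few genes is not read as a result. Of 17 genes of the ERK and SRF route, 4 fell in iMPC Pax7+ and none rose, 3 fell and 1 rose in iMPC Pax7-, 3 fell and 3 rose in ASC, and 2 fell and 3 rose in MEF. Srf itself had a log2 fold change of -0.75 in iMPC Pax7+ and did not pass. The kinase genes Rps6ka5, Rps6ka3 and Braf and the SRF partner Elk4 fell there, by -2.79, -2.73, -2.60 and -2.59 log2 units. Of 15 identifiers for 14 genes of the cAMP and CREB route, 4 fell and 1 rose in iMPC Pax7+, 3 fell and 1 rose in iMPC Pax7-, 3 fell and 1 rose in ASC, and 4 fell and 1 rose in MEF; in the contrast of the mean of the 4 other groups, 9 fell and 2 rose, where 20.3% of all genes fell. Crem, whose short form represses CRE-driven genes, had 10.1 CPM in iMPC Pax7+, 39.5 in iMPC Pax7-, 14.9 in ASC and 15.1 in MEF, against 166 and 190 CPM in QSC. Pde4b, which degrades cAMP, fell by 4.35 log2 units in iMPC Pax7+ (SE 0.85, edgeR adjusted p = 0.0019), and Prkaca, the catalytic subunit of protein kinase A, rose by 3.29 ± 0.59 (edgeR adjusted p = 9.6e-04). Creb1 did not pass (log2 -0.10).

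Among 5 partner genes, the EGR corepressors Nab1 and Nab2 did not pass in iMPC Pax7+ (log2 -0.04 and -0.25). Rxrg, encoding an RXR receptor, the NR4A1 and NR4A2 partner family, had 6.40 CPM in iMPC Pax7+, 14.6 in iMPC Pax7-, 50.5 in ASC and 0.0374 in MEF, against 0.572 and 0.407 CPM in QSC. It rose in iMPC Pax7+ (log2 3.70 ± 0.79, edgeR adjusted p = 0.0036), as did Rxra (log2 1.88 ± 0.58, edgeR adjusted p = 0.029). Of the 9 other MAP kinase phosphatase genes, 2 rose and 3 fell in iMPC Pax7+, 3 rose and 2 fell in iMPC Pax7-, 2 rose and 1 fell in ASC, and 2 rose and 4 fell in MEF. Dusp8, Dusp16 and Dusp5 were those that fell in iMPC Pax7+, by -6.25, -4.14 and -2.91 log2 units, and Dusp9 and Dusp7 rose. Of 8 genes of AU-rich mRNA decay, 1 rose and 2 fell in iMPC Pax7+, ASC and MEF, and 1 rose and 1 fell in iMPC Pax7-. Zfp36, which binds AU-rich stretches and triggers decay and is itself an immediate early gene, had 47.2, 67.1, 16.3 and 127 CPM in iMPC Pax7+, iMPC Pax7-, ASC and MEF, against 3481 and 3310 CPM in QSC.

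**Figure D5:**
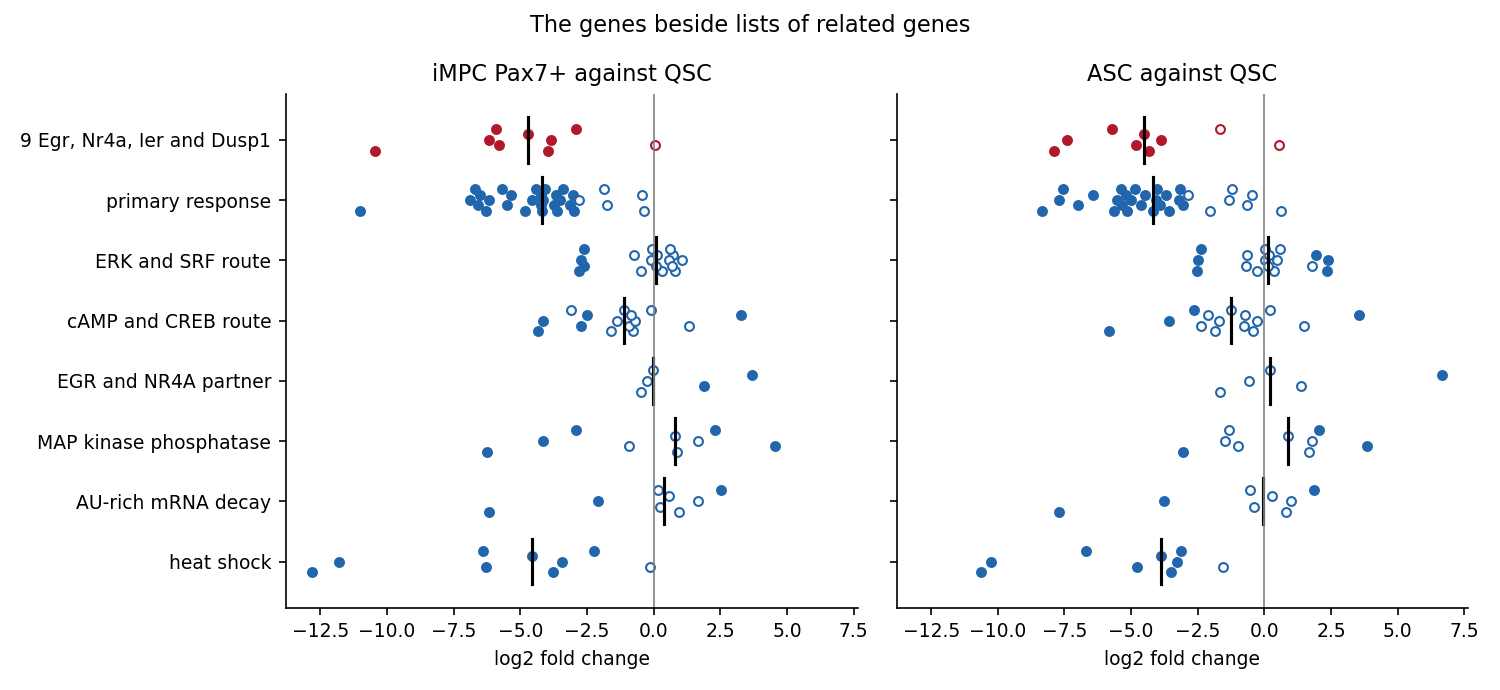
Log2 fold change from QSC of the 9 members (top) and of each gene in 7 lists, in iMPC Pax7+ (left) and ASC (right); each point is 1 gene, filled where it passed edgeR's adjusted threshold, shifted up or down only for legibility, and the black line is the median. The primary response and heat shock lists lie mostly below 0, while the ERK and SRF route lies on either side of 0; Nr4a3 in iMPC Pax7+ is drawn at its bound.

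The AU-rich pentamer AUUUA was counted in the 3′ untranslated region of each gene's longest coding transcript in GENCODE vM21. It occurred 2, 3 and 7 times in Egr1, Egr2 and Egr3, 3, 3 and 5 times in Nr4a1, Nr4a2 and Nr4a3, and 0, 5 and 4 times in Ier2, Ier3 and Dusp1. Per kilobase this was 8.12 in Ier3, 5.77 in Dusp1 and 5.49 in Nr4a1, against a median of 1.35 over 14186 genes. The other members lay nearer that median, at 1.64, 2.49 and 2.64 in Egr1, Egr2 and Egr3, 2.26 in Nr4a2, 1.61 in Nr4a3 and 0 in Ier2. The longer form UUAUUUAUU stood only in Dusp1, with 2 copies, and 8.37% of genes hold it. Ier2, which has a single exon, held no AUUUA.

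Members were compared with all other genes by the root mean square distance between centred log2 CPM profiles over the 6 libraries. Dusp1 lay closest to the mean profile of the 9 genes, at 0.430, and Egr3 and Nr4a3 farthest, at 2.17 and 2.13. The non-member genes nearest to that mean were Rac2 (0.247), Akap2 (0.267), Gabarapl1 (0.289), Tmem71 (0.292), Pnrc1 (0.317), Junb (0.325), Clec3b (0.348), Gm26538 (0.348), D630039A03Rik (0.351) and Ifit1 (0.355). Rac2, Tmem71, Clec3b, Gm26538 and D630039A03Rik did not exceed 3.21 CPM in any library, so a few counts set their profiles. The AP-1 gene Junb had 172, 256, 143 and 242 CPM in iMPC Pax7+, iMPC Pax7-, ASC and MEF, against 4172 and 4048 CPM in QSC. The nearest gene to a single member was Rnf125 for Egr2 (0.243), Epgn for Egr3 (0.253), Apod for Nr4a1 (0.366), Il18 for Nr4a2 (0.415), Atf3 for Nr4a3 (0.592), Stat3 for Ier2 (0.136), Galnt16 for Ier3 (0.370) and Tmbim1 for Dusp1 (0.222). These distances are descriptions over 6 libraries that share 1 scaling.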

How the data were processed

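Poly(A)-selected RNA of 6 libraries was sequenced with a directional kit, per the labels' protocols. The authors deposited raw counts per gene for each library (38924 genes, no normalization) and a table of RPKM values. The submitters' processing notes name the build mm9 and the tools HTSeq 0.6.0, STAR 2.3.0, edgeR and Picard 1.100; for annotation and strand use, nothing is given in the sources used here. The deposited RPKM values equal counts scaled to library totals and 1 length a gene (largest relative deviation 6.66e-15).

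Tests ran on the counts with edgeR 4.0.16 in R 4.3.3 (default expression filter by group, TMM, 1 coefficient per group over all 6 libraries, two-sided quasi-likelihood F test, Benjamini-Hochberg threshold 0.05 over 17116 genes) after the code was tested on simulated data. Only QSC had replicates, so 1 residual degree of freedom remained and each lone library was assumed to vary like the QSC mice (biological coefficient of variation 0.476, prior degrees of freedom 16.3). SE was derived from the log2 fold change and F. Single libraries were compared with no test, by ratios of CPM with exact 95% Clopper-Pearson counting intervals and the rule of at least 4-fold and 5 CPM; reads without molecular identifiers are not independent molecules. The floor for 0 counts was 3 counts a library. Alternatives used limma 3.58.1, DESeq2 1.42.0, other scalings, filters and left-out mice.

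The members, lists and tests were chosen with earlier results of these data known. Named genes were the 9 members, up to 4 called genes per list by size of change in iMPC Pax7+, genes nearest to the members' profiles (that of Egr1 is not reported here), and, chosen after their values were seen, Srf, Creb1, Nab1, Nab2, Hspd1, Dusp7 and Ergic1. Of 153 list and marker entries, 152 matched a gene. Motifs were searched with Python 3.11.15. Protein sequences were not used here.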

Additional observations from a re-analysis of the deposited data

How the results depend on the processing

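The count of members lower than in QSC (8, 8, 7 and 8 of 9 in iMPC Pax7+, iMPC Pax7-, ASC and MEF) was the same with RLE factors, TMM factors computed without the members and stress lists, no filter, a filter of 5 CPM and a preset coefficient of variation of 0.4; DESeq2 added Nr4a2 in ASC. Scaling by library size alone raised the median log2 fold change of all genes to 0.60, 0.86, 0.59 and 0.61, and the members' median was then -4.05, -3.06, -3.93 and -3.14. Under it 5 members were lower in iMPC Pax7- (Egr2, Ier2 and Ier3 no longer passed, with edgeR adjusted p of 0.146, 0.063 and 0.098), and Ier2 in iMPC Pax7+ and MEF (0.052 and 0.063) and Ier3 in MEF (0.088) were lost. With limma on log2(RPKM + 0.1), 0 members and 0 genes passed in any of the 5 contrasts; 5551, 5782, 5580, 5523 and 7800 genes had an unadjusted p below 0.05. The preset coefficient of variation called 6581, 6334, 6534 and 6493 genes in iMPC Pax7+, iMPC Pax7-, ASC and MEF, against 3524, 3189, 3432 and 3312 with the fitted spread. No member changed direction in any of these alternatives where it was called.

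Without QSC mouse 1 or mouse 3, members at least 4-fold lower numbered 8 and 8 in iMPC Pax7+, 8 and 7 in iMPC Pax7-, 7 and 7 in ASC and 8 and 8 in MEF; no residual degree of freedom is then left for a test. Nr4a3 moved most, to log2 -6.48, -6.51 and -6.69 in iMPC Pax7-, ASC and MEF without mouse 3. Between single libraries, a 2-fold rule counted 4 members for iMPC Pax7+ against iMPC Pax7-, 3 for iMPC Pax7+ against ASC, 3 for iMPC Pax7- against MEF, 4 for ASC against MEF and 1 for the QSC mice; scaling by library size alone or a minimum of 1 CPM each gave 1 for iMPC Pax7- against MEF. The shares of all tested genes past these 4-fold and 2-fold rules are not given here. The member counts under them are therefore not read as a result. No paired analysis was possible because the groups compared share fewer than 2 replicate numbers. Every p rests on the spread between 2 QSC mice, and a group of 1 library cannot be told apart from its culture.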
